A study of Mus musculus with 12 samples.

Results

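Most of the mouse genome is methylated at CpG dinucleotides, and short stretches that lack methylation mark promoters and distal regulatory elements. CpG islands at promoters are usually kept free of methylation whatever the cell does. Regions of low methylation that are poor in CpGs and lie away from promoters are typical of enhancers, where bound transcription factors are associated with the loss of methyl groups, and many of them differ between cell types and stages. The regions described here were distal and CpG-sparse and had a low methylation level in neonatal and adult β cells of both sorted subtypes. They numbered 19,074 of 84,472 autosomal hypomethylated regions (HMRs).

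The β cells came from Myt1cCre; Ngn3nCre; Rosa26eYFP, InsApple mice at postnatal day 2 (P2) or day 60 (P60), all of which carried the same alleles. In these mice the parts of Cre are expressed from Myt1 and from Ngn3, both transcription factor genes of islet progenitors, so that eYFP marks descendants of progenitors that expressed both. The eYFP+ cells are called M+N+ and the eYFP- cells M-N+. They were sorted by eYFP and the Apple reporter of insulin expression, and each library combined cells of several sorts and mice. The titles of the libraries name sorted beta cells with eGFP in place of eYFP, and another label of theirs names all islet cells. Whole genome bisulfite sequencing was done on 12 libraries, 2 per subtype at P2 and 4 per subtype at P60. At P60, replicates 1 and 3 were labelled female and replicates 2 and 4 male. At P2, replicate 1 was labelled female and replicate 2 male, but at 254 X-linked HMRs the M-N+ replicate 1 (92.5% present) resembled the M+N+ replicate 2 (84.3%), and the other two libraries had 13.0% and 13.4%. No result below uses the sex at P2.

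Read counts at each CpG were deposited as 1 pool per subtype and stage, with means of 24.4 and 24.6 reads per CpG at P2 and 44.1 and 43.9 at P60 (M-N+ first, here and below). Single libraries were represented by the positions of their HMRs, so levels have no replicate error and their 95% Wilson intervals cover counting error only. The β-cell identity of the pools was checked over 500 bases on each side of the start of marker genes. The starts of Pdx1, Mafa, Iapp and Slc2a2, which β cells express, were methylated at 0.323% to 7.79% in the 4 pools. The starts of Ins1 and Ins2, the insulin genes, were at 12.6% to 35.1% at P2 and 4.86% to 7.87% at P60. The start of Sst, the somatostatin gene of δ cells, was at 14.7% to 19.2%. The starts of Gcg, Cpa1, Cela2a, Pnlip, Ptprc, Pecam1 and Cdh5, markers of α, acinar, blood and endothelial cells, were at 54.6% to 85.7%.

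The HMRs of the 4 pools were merged where they overlapped, and 81,983 autosomal regions shorter than 5 kb held at least 50 reads in each pool. Of these, 64,595 had their midpoint over 2 kb from every start of a protein-coding transcript, and 61,100 of those held fewer than 5 CpGs per 100 bp. The 19,074 stable regions (31.2%) are those with a level of at most 15% in all 4 pools, where the level is the percent of methylated reads among all reads on the region's CpGs. The remaining 42,026 CpG-sparse distal regions are called the other regions. The stable regions were thus selected on their pooled levels, so these levels are a description and no test was made, and the HMRs of single libraries come from the same reads.

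A few sequences show what such a region looks like. The first pair are the central stretches of the regions with the lowest highest level over the 4 pools among those with at least 200 reads in each. Both are in introns, 3,899 bases upstream of the nearest start of Gtf2ird2 (chr5:134238952-134239151), a TFII-I family gene, and 30,909 bases downstream of the nearest start of Ppp3ca (chr3:136406432-136406631), which encodes the catalytic subunit of calcineurin. All sequences are from the plus strand of mm39, and capitals mark matches, on either strand, to the motifs searched below.
Gtf2ird2: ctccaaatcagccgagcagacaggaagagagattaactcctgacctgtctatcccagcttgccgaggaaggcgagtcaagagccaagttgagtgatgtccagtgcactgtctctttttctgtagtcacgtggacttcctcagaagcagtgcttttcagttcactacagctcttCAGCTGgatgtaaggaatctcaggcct
Ppp3ca: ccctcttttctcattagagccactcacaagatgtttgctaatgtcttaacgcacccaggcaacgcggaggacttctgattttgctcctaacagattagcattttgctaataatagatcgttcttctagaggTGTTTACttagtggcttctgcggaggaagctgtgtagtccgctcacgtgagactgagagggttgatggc
The stretch at Gtf2ird2 holds 4 CG dinucleotides and the E-box CAGCTG, and that at Ppp3ca holds 7 and the FOXA motif TGTTTAC. In the whole Gtf2ird2 region (464 bp, 11 CpGs) the level was 0.327% of 306 reads, 0.629% of 318, 0.535% of 747 and 0.429% of 700 in the P2 M-N+, P2 M+N+, P60 M-N+ and P60 M+N+ pools, the order kept throughout. In the Ppp3ca region (269 bp, 10 CpGs) it was 0.629%, 0, 0 and 0.647%, and the 0 of 236 and of 447 reads allow up to 1.60% and 0.852%. Both regions were HMRs in all 12 libraries.

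The next set shows the region with the lowest mean level at Gse1 (chr8:121022374-121022573), Tenm3 (chr8:50385244-50385398) and Adgrl2 (chr3:148962644-148962843), which are among the genes with the most stable regions.
Gse1: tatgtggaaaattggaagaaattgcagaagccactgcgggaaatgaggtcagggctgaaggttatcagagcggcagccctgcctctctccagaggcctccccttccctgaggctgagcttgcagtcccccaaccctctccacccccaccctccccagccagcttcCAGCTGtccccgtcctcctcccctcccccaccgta
Tenm3: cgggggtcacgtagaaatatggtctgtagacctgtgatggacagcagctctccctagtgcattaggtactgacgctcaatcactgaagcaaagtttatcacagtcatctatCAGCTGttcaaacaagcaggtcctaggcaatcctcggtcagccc
Adgrl2: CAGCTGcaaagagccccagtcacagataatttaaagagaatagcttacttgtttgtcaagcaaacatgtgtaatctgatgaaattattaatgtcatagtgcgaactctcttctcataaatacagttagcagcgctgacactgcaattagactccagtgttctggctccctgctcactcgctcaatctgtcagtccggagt
Each holds 4 CG dinucleotides and 1 E-box CAGCTG. The Gse1 region is in an intron, and the other two are in non-coding genes 1,088,335 bases upstream of Tenm3 and 266,515 bases upstream of Adgrl2.

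The last set shows the stable region with the lowest mean level among those assigned to each of 3 transcription factor genes of β cells: Pdx1 (chr5:147200861-147201060), Nkx2-2 (chr2:147098671-147098870) and Neurod1 (chr2:79347945-79348144).
Pdx1: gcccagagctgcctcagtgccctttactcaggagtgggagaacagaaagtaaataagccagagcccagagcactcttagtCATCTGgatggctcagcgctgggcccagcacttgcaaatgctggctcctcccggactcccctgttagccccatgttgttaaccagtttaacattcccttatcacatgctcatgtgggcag
Nkx2-2: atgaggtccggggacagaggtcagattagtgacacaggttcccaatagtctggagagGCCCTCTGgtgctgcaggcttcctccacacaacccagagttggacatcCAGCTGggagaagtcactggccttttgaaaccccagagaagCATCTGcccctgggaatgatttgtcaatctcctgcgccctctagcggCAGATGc
Neurod1: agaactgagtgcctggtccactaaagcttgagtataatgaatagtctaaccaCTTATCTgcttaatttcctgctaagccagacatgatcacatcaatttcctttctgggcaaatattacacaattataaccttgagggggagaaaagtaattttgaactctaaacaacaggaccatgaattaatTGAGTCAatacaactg
The Pdx1 stretch holds 2 CG dinucleotides and the Nkx2-2 stretch 3. The Neurod1 stretch holds none, since the 4 CpGs of that region lie nearer its ends.

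The stable regions were short. Their median length was 464 bp (range 72 to 4,928), with a median of 9 CpGs (3 to 240) and 2.12 CpGs per 100 bp. Together they covered 11.5 Mb. The other regions were of like size, with a median length of 458 bp and 8 CpGs. Stable CpG-sparse regions within 2 kb of a coding start, 6,806 in number, were longer, at a median of 1,616 bp and 61 CpGs.

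The median level of the stable regions was 6.11%, 6.74%, 7.18% and 7.19% in the 4 pools. The medians of the other regions were 16.7%, 17.2%, 24.9% and 24.5%. The stable regions thus stayed at nearly the same level between the stages, with a median change from P2 to P60 of 0.83 percentage points in M-N+ and 0.297 in M+N+ cells. The other regions gained 9.74 and 9.05 points at the median, and 79.2% and 77.0% of them had a higher level at P60. The limit of 15% itself keeps large changes out of the stable regions.

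**Figure D1:**
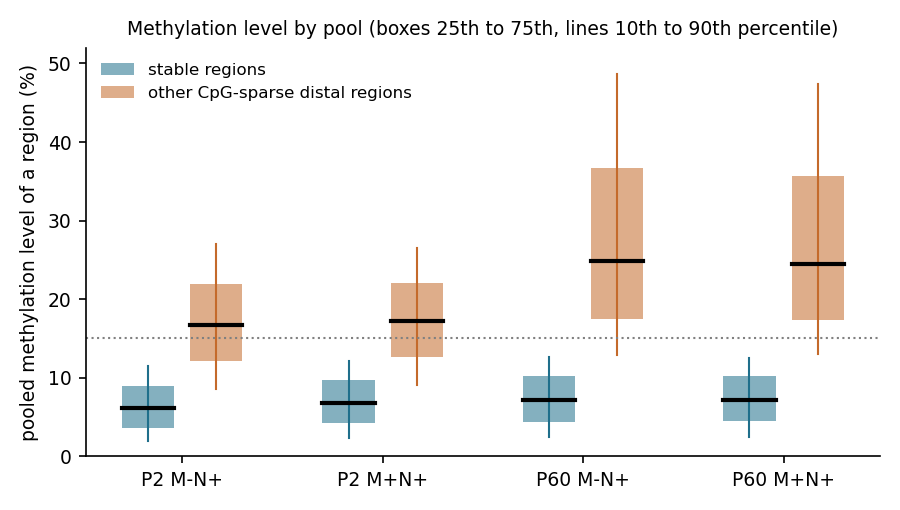
Methylation level of the 19,074 stable regions and the 42,026 other CpG-sparse distal regions in each pool. Boxes span the 25th to 75th percentile, lines the 10th to 90th, black bars are medians and the dotted line is the selection limit of 15%. The stable regions' medians lie between 6.11% and 7.19%, and those of the other regions rise from 16.7% to 24.9% in M-N+ cells.

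Within the stable regions the subtypes were compared under the limit of 15% in every pool, which itself bounds any difference. The level in M+N+ cells minus that in M-N+ cells had a median of 0.458 points at P2 and -0.0235 points at P60. The size of the difference, without its sign, had a median of 1.58 and 1.21 points. A difference over 5 points was seen in 7.68% of the stable regions at P2 and 2.90% at P60, against 32.0% and 21.8% of the other regions, which had failed that limit, so nothing is read from this contrast. At a median of 232 reads per region at P2 and 422 and 419 at P60, the 95% interval of 1 region's level was 5.88, 6.19, 4.66 and 4.66 points wide at the median, so a difference of a few points at 1 region is within counting error. The upper bound of the interval was at most 15% in all 4 pools in 11,691 stable regions (61.3%).

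The limit divided a continuous range of levels. The highest of the 4 levels was above 10% and up to 15% in 8,921 regions, of which 45.6% were present in all 12 libraries, and above 15% and up to 20% in 8,880, of which 32.9% were. Just inside it, regions near Ntm, Ubash3b and Aagab were exactly at the limit in the P2 M+N+ pool. Just outside it, regions near Vmo1, Spock1 and Crhr1 exceeded it in a P60 pool by less than rounding shows. Near Aagab the other 3 pools were at 3.30%, 4.79% and 5.14%, and near Crhr1 they were at 9.45%, 9.27% and 14.5%.

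Among the regions with the lowest levels were 4 more besides those near Gtf2ird2 and Ppp3ca. They were nearest to Lsm14a, an RNA-binding protein gene, Arhgap12, a GTPase-activating protein gene, Cebpe, a transcription factor gene of granulocytes, and Syf2, a splicing factor gene. The highest of their 16 levels was 0.804%, and each was an HMR in all 12 libraries.

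Methylation fell sharply towards the centre of the stable regions. In the 100 bp on either side of the centre, 3.68% to 4.16% of the reads were methylated in the 4 pools. At 4,950 bases from the centre, on the side of lower coordinates, it was 66.7% to 67.8%. In the other regions the centre was at 15.7% to 16.1% at P2 and 25.7% to 26.4% at P60, and the surroundings were at 66.9% to 67.7%. Outside every HMR, from 1 to 3 kb beyond the ends of each region, the median level was 78.2%, 78.8%, 80.2% and 79.3% for the stable and 78.2%, 78.8%, 80.0% and 79.2% for the other regions. The sequence around both sets was thus methylated to nearly the same level, while the difference inside the regions was fixed by the selection.

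**Figure D2:**
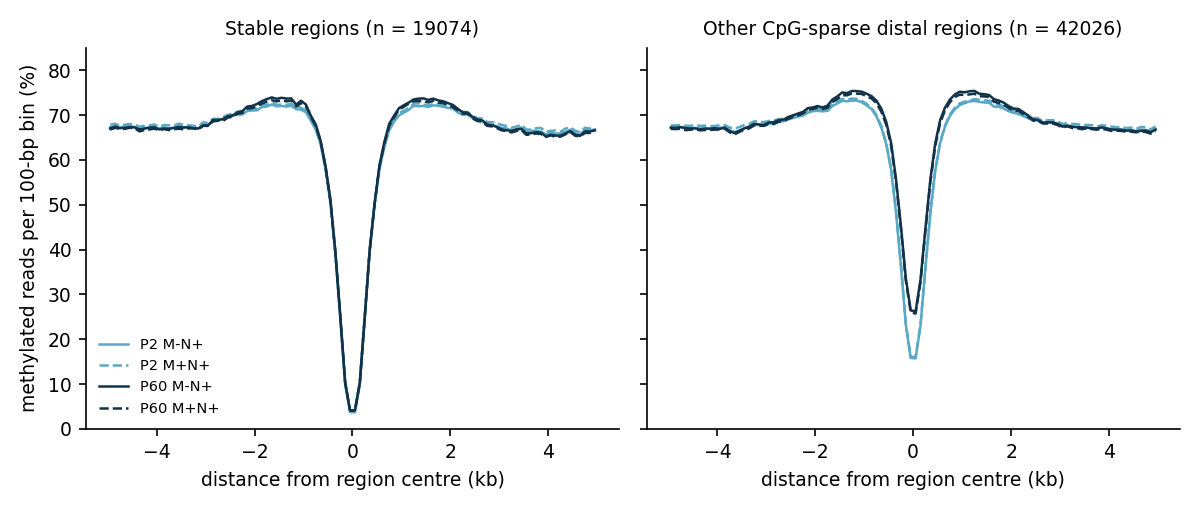
Percent of methylated reads in bins of 100 bp by distance from the region centre, for the stable regions and the other CpG-sparse distal regions. Blue lines are P2 and dark lines P60, solid M-N+ and dashed M+N+. The 4 lines coincide at the centre of the stable regions, at 3.68% to 4.16%, whereas the P60 lines lie above the P2 lines in the other regions.

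The HMRs of single libraries showed how often a stable region was found in each. An HMR of the library overlapped 74.2% and 72.1% of the stable regions in P2 M-N+ replicates 1 and 2, and 73.8% and 70.9% in P2 M+N+. At P60 the shares in replicates 1 to 4 were 67.7%, 77.7%, 57.0% and 72.0% in M-N+ cells. In P60 M+N+ cells they were 60.6%, 73.7%, 57.3% and 76.7%. The means were 73.2% ± 1.50 (SD, n = 2), 72.4% ± 2.03 (n = 2), 68.6% ± 8.76 (n = 4) and 67.1% ± 9.57 (n = 4), so the groups overlapped. The 4 libraries labelled female at P60 lay below the 4 labelled male, and they held fewer autosomal HMRs of any kind, 37,067 to 43,554 against 44,822 to 48,399. The part of the number of HMRs in this difference was not tested. The sexes at P60 are those of the labels, and no X-linked values are given for them here. Of all 81,983 regions eligible by length and reads, 65.9% to 71.1% were found in each P2 library and 43.9% to 56.2% in each P60 library. Of the other regions, 54.0% to 61.8% were found in each P2 library and 22.1% to 34.8% in each P60 library. The same reads set the levels that divided the stable from the other regions, so nothing is read from that contrast.

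An HMR was present in all 12 libraries at 9,649 stable regions (50.6%). The share was 36.4% of all eligible regions, 24.2% of all CpG-sparse distal regions and 12.2% of the other regions. The libraries hold the reads whose pooled levels selected the stable regions, so nothing is read from the contrast with the other regions. At 2,902 stable regions (15.2%) no library had an HMR. These had a median of 4 CpGs, and 99.3% of them had 5 or fewer. The library lists held hardly any HMR with 5 or fewer CpGs, between 0.00270% and 2.95% of each list, whereas the pooled lists held 5.82% to 21.5%. Absence from the libraries at such regions is therefore no measure of their methylation.

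The share rose with the number of CpGs. It was 0 of 4,352 stable regions with up to 5 CpGs and 4.02% of 3,684 with 6 or 7. It was 67.4% of 4,536 with 8 to 11 CpGs, 98.4% of 3,555 with 12 to 19 and 99.9% of 2,947 with 20 or more. For all eligible regions the last 3 shares were 20.1%, 51.5% and 93.4%, and for the other regions 4.78%, 31.2% and 70.1%. The same reads divided the stable from the other regions, so nothing is read from their contrasts here. Over all stable regions with at least 8 CpGs, 86.1% of 11,038 were present in all 12 libraries. The share was 56.1% of 52,869 eligible regions and 21.5% of 23,877 other regions. Single libraries then held 99.3% to 99.8% of the stable regions at P2 and 92.4% to 99.7% at P60, the lowest in both subtypes being replicate 3.

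**Figure D3:**
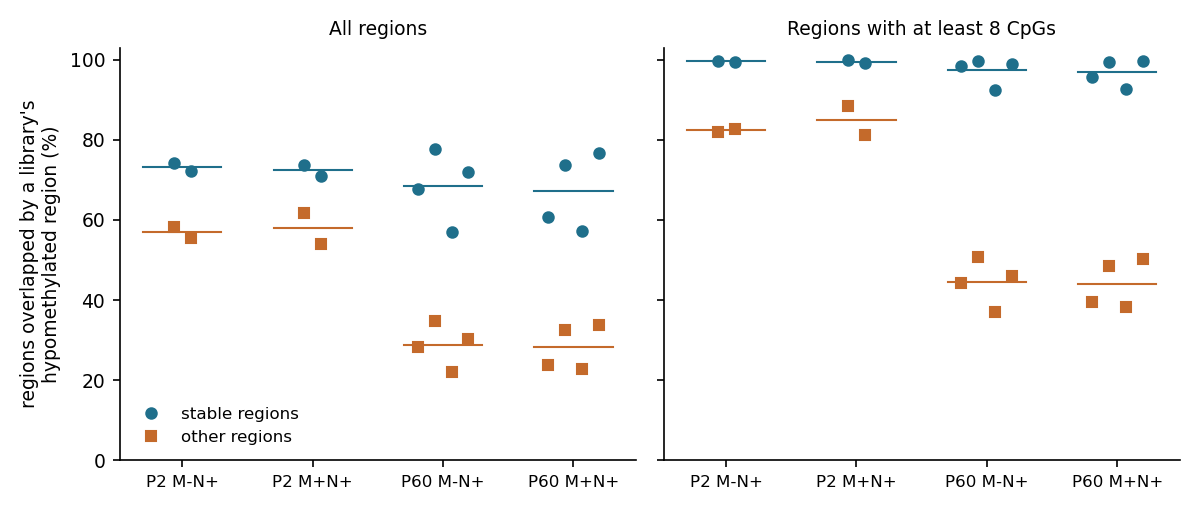
Percent of regions overlapped by an HMR of each library, for all regions and for those with at least 8 CpGs. Points are libraries, in the order of their replicate numbers, and horizontal lines are group means. With at least 8 CpGs each library held 92.4% or more of the stable regions. Of the other regions, libraries held 81.2% to 88.5% at P2 and 36.9% to 50.8% at P60. The same reads set the pooled levels that divided the 2 sets, so nothing is read from this contrast. P60 libraries also held fewer autosomal HMRs of any kind, 37,067 to 48,399 against 55,619 to 59,870 at P2.

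The stable regions lay a median of 32,520 bases from the nearest protein-coding start, 46.1% of them upstream of it. Within 10 kb of a start were 20.4%, and within 100 kb 76.6%. Their midpoint was inside a protein-coding gene in 46.4% of cases, in an intron in 42.4% and in an exon in 4.01%. Of the other regions 50.2% were inside a protein-coding gene, and of all eligible regions 57.8%. Outside every annotated gene were 30.3% of the stable regions. A start of a non-coding transcript lay within 2 kb of 18.3% of the stable and 15.9% of the other regions.

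When each region was assigned to the nearest coding start, 8,074 of 20,428 autosomal protein-coding genes (39.5%) had at least 1 stable region, with a median of 2 among those genes. At least 10 were nearest to each of 128 genes. The nearest start is a label of position and does not show which gene a region acts on. The gene with the most was Gse1, which encodes a protein of histone deacetylase corepressor complexes, with 26. Tenm3, a teneurin adhesion protein gene, had 25, Zfp608, a zinc finger protein gene, 24, and Adgrl2, the gene of the adhesion receptor latrophilin 2, 24. Zfp516 and the zinc finger homeobox gene Zfhx3 had 21 each, and the splicing regulator gene Rbfox1 had 20. Nr2f2, the nuclear receptor gene known as COUP-TFII, and Robo1, a receptor gene of axon guidance, had 19 each. Agap1, an Arf GTPase-activating protein gene, and the HMG-box gene Tox3 had 17 each, and Thap1, a THAP zinc finger gene, 16.

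These counts follow in part from the space around the genes. The sequence nearest to their starts was 360 to 2,845 kb long, against a median of 45.0 kb over all genes. Per 100 kb of it, Gse1 had 7.21 stable regions, Thap1 3.73, Agap1 3.01 and Zfp516 2.86, where the autosomes averaged 0.775. Tenm3 had 0.879, and Rbfox1, at 0.767, was below that average. Among the CpG-sparse distal regions of each of these 12 genes, 25.6% (Zfhx3) to 45.7% (Thap1) were stable, against 31.2% over all genes.

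Only some of these regions were inside the genes. Counted by gene body, the 12 genes had 120 regions in place of 249, with 26 at Gse1 and 17 at Agap1. Nr2f2 and Thap1 had none in the gene body, and Adgrl2 1. With domains that reach up to 1 Mb towards the next gene, the 12 genes had 279, the most at Zfp608 with 32.

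**Figure D4:**
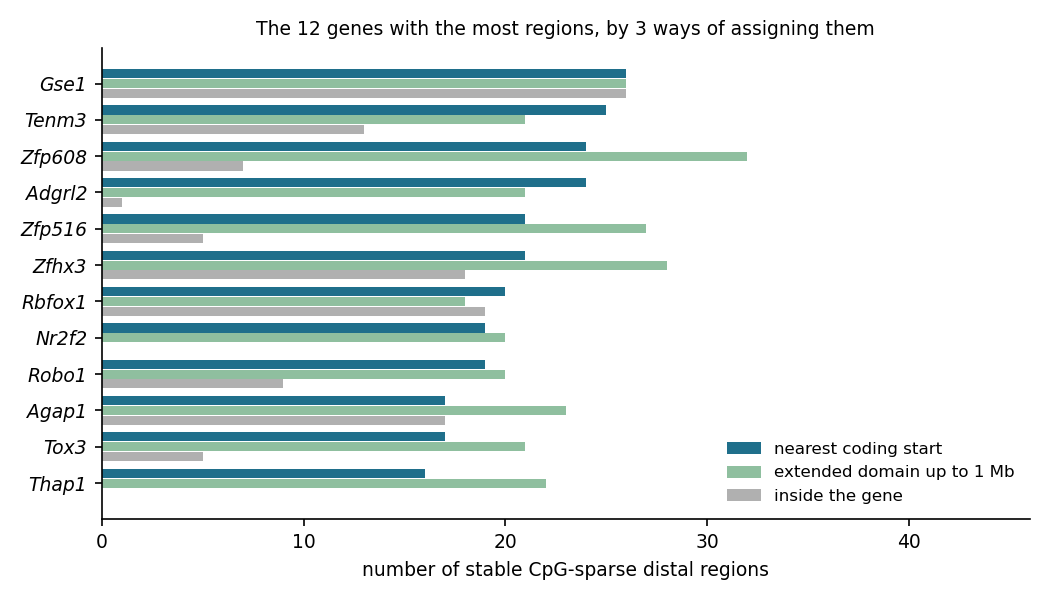
Number of stable regions at the 12 genes with the most, by nearest coding start, by extended domains of up to 1 Mb and by position inside the gene. Gse1 has 26 by each count, and Nr2f2 and Thap1 have none inside the gene.

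The 26 regions of Gse1 were all intronic and were 104 to 2,482 bp long. In the region with the lowest mean level, whose centre is printed above, 1.40% of 428 reads were methylated at P2 in M-N+ cells and 3.49% of 344 in M+N+ cells. At P60 the level there was 2.60% of 1,040 and 2.65% of 868 reads. The highest mean level was in a region of 314 bp with 10 CpGs, at 14.9%, 10.1%, 12.3% and 14.1%. Of the 26, 1 region with 4 CpGs was present in 1 library, and the rest were in 8 or more.

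At Tenm3 the printed region was at 2.14%, 5.16%, 2.23% and 2.63%, and with 5 CpGs it was an HMR in 1 library. At Adgrl2 it was at 2.59%, 2.47%, 2.73% and 1.23%, and with 11 CpGs it was present in all 12.

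The genes of 3 lists that matter to β cells were counted next: transcription factors, hormone and secretory granule genes, and genes of glucose sensing, channels and receptors. Of 26 transcription factor genes, 25 had at least 1 stable region, with a median of 3 regions, against 39.5% and a median of 0 over all genes. Sox9 and Foxa2 had 11 each. Nkx6-1 and Myt1l had 9, Glis3 8, Isl1 and Nr5a2 7 and Mafa 6. Insm1, Rfx3 and Onecut1 had 5 each, Pax6 had 4, and Pdx1, Nkx2-2, Neurod1 and Gata6 had 3. Rfx6 and St18 had 2, Hnf4a, Mnx1, Myt1 and Gata4 had 1, and Foxa1 had none. The median territory of these genes was 179 kb, well above the 45.0 kb of all genes, so a higher count comes with more space. Of their CpG-sparse distal regions 28.6% were stable, below the 31.2% over all genes.

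Pdx1, a master regulator of the pancreas and of β cells, had 3 of its 4 CpG-sparse distal regions stable. The nearest, printed above, was 5,808 bases upstream and was at 3.95%, 2.50%, 7.31% and 8.47%. The other two, 34,037 and 35,413 bases upstream, were at 8.84% to 14.9%, the highest value in the P2 M+N+ pool in both.

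Nkx6-1, a homeobox gene needed for β-cell identity, had 9 stable regions of 27, from 292,692 bases downstream to 18,395 bases upstream of its start. The longest, of 4,368 bp and 125 CpGs, was at 6.77%, 6.86%, 10.2% and 9.91%, and was present in every library.

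Nkx2-2 and Neurod1 are transcription factor genes of endocrine differentiation. The printed Nkx2-2 region, with 5 CpGs, was at 1.98%, 0, 6.17% and 1.38%, where 0 of 118 reads allows up to 3.15%. No library listed it. The printed Neurod1 region was at 8.41%, 5.38%, 3.10% and 7.98% of 107 to 163 reads, and no library listed it either. Another region at Neurod1, of 262 bp, went from 11.8% and 10.4% at P2 to 3.06% and 1.90% at P60. It was present in all 12 libraries, so stability as defined here still leaves room for a fall between the stages. At Myt1, a zinc finger gene of endocrine progenitors whose name the Myt1cCre allele of these mice carries, the single region rose from 2.09% and 1.97% at P2 to 11.3% and 11.4% at P60. Its 95% intervals at P2 reached 3.80% and 3.59%, and those at P60 began at 9.38% in both subtypes. These intervals cover counting error only and leave out the spread between animals, so the rise at Myt1 was not tested. The Mnx1 region went from 4.51% and 3.58% to 10.7% and 8.58%.

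Mafa, a factor of mature β cells, had 6 stable regions of 12 between 7,438 bases downstream and 38,514 bases upstream of its start. The farthest was at 3.11%, 3.95%, 1.80% and 2.75% and was present in every library. Foxa2, a forkhead factor gene of foregut endoderm, had 11 of 34, of which 2 regions with 4 CpGs each were in no library list. The lowest region of Pax6, an eye and islet homeobox gene, was at 0.926%, 2.04%, 0.606% and 0.641%.

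Of 21 autosomal hormone, granule and exocytosis genes, 18 had a stable region, with a median of 3 regions, against 39.5% and a median of 0 over all genes. Their median territory was 203 kb, against 45.0 kb over all genes. Ptprn2, a granule membrane protein gene, had 7. The prohormone processing genes Pcsk2 and Cpe, the granin gene Scg2, the zinc transporter gene Slc30a8 and the synaptotagmin gene Syt13 had 6 each, and Syt7 5. Snap25 had 4, Ins2, Pcsk1, Chga and Scg3 had 3, Ins1, Scg5, Rims2 and Pclo 2, and Iapp and Ptprn 1. Chgb, Syt4 and Stx1a had none. Of the CpG-sparse distal regions of the list 38.9% were stable, against 31.2% over all genes. The share ranged from 3 of 3 at Pcsk1, 6 of 7 at Scg2 and 4 of 5 at Snap25 to 7 of 30 at Ptprn2, 2 of 11 at Ins1 and 0 of 2 at Chgb and at Syt4.

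Of the insulin genes, Ins2 had 3 of its 4 CpG-sparse distal regions stable and Ins1 2 of 11. A region 11,896 bases upstream of Ins1 was at 1.92%, 5.56%, 2.69% and 1.87% and present in all 12 libraries. A region 4,013 bases upstream of Ins2 was at 10.2%, 13.0%, 7.83% and 4.90%, also in all 12. The start of Ins1 itself was at 28.3% and 35.1% at P2, so the upstream region was low at a stage when the start was not. The Iapp region, 8,529 bases upstream of that amyloid peptide gene, was at 0.683%, 0.686%, 1.24% and 0.634%. Near Snap25, a gene of the vesicle fusion machinery, a region of 1,788 bp with 70 CpGs was at 1.26%, 1.17%, 0.619% and 1.07% of 1,743 to 3,714 reads.

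Of 15 autosomal genes of glucose sensing, channels and receptors, 11 had a stable region, with a median of 2 and a median territory of 68.4 kb, and 33.8% of the list's CpG-sparse distal regions were stable, near the 31.2% over all genes. Cacna1c, a voltage-gated calcium channel gene, had 11. The glucose transporter gene Slc2a2 and the channel gene Cacna1d had 6 each, and Abcc8, the sulfonylurea receptor gene, and the prolactin receptor gene Prlr 5. Cacna1a had 4, Glp1r 2, and G6pc2, Gipr and Ffar1 1. Kcnj11, Ucn3, Kcnk16 and Trpm5 had none. At Slc2a2 the lowest region, 106,334 bases upstream, was at 0.881%, 2.09%, 4.08% and 3.88%. At Glp1r, the receptor gene of the incretin GLP-1, the lowest was at 8.98%, 4.14%, 2.42% and 3.05%.

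Genes of other cell types had stable regions too. They were found at 3 of 10 acinar genes, 6 of 9 liver genes, 4 of 9 blood cell genes, 8 of 10 endothelial genes and 6 of 10 muscle genes, where 39.5% of all genes had one. The median territories ranged from 31.1 kb for the blood cell genes to 165 kb for the endothelial genes. The most were 3 at the acinar factor gene Ptf1a, 8 at the liver urea cycle gene Cps1, 6 each at the blood genes Ptprc and Runx1, 7 at the endothelial cadherin gene Cdh5 and 6 at Mef2c of muscle. Of the CpG-sparse distal regions 27.3% were stable for acinar, 37.2% for liver, 37.2% for blood, 34.6% for endothelial and 46.4% for muscle genes, shares that rest on 22 to 52 regions. The shares of the β-cell lists lay among them.

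The central 200 bp of every region were searched on both strands for 14 short consensus motifs, of which 13 are described, where N is any base: TGTTTAC for FOXA factors, TAATTA for homeodomain factors, ATTGATT for HNF6, AGATAAG for GATA factors, GTTGCCA for RFX, TGCTGAC for MAF, CAGATG and CAGCTG for bHLH factors, which bind E-boxes, CACTTNA for NKX2, TGANTCA for AP-1, CAGNGGGC for CTCF, TTCNNNGAA for STAT and TCAGCACCA for REST. A match is a run of letters and not a bound site, and motifs were allowed to overlap. At least 1 motif was found in 67.7% of the stable and 67.3% of the other regions, and the median GC content was 47.0% in both.

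Between the stable and the other regions, 9 of the 13 motif shares differed by less than 1 percentage point, and the exceptions were CAGATG, CTCF, GATA and HNF6. The E-box CAGATG was found in 21.7% of the stable, 20.5% of the other and 18.3% of all eligible regions. The homeodomain motif was found in 9.98%, 9.34% and 7.77%, the FOXA motif in 7.19%, 6.62% and 5.72%, and the RFX motif in 3.80%, 3.42% and 3.26%. The MAF motif was found in 5.46%, 5.25% and 4.90%, the AP-1 motif in 7.70%, 7.59% and 6.62% and the STAT motif in 6.65%, 6.40% and 5.82%. For CAGCTG and NKX2 the difference between stable and other regions changed sign with the width of the window. The REST motif, the rarest, was in 0.325%, 0.488% and 0.432%, with 62 stable regions behind the first share.

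The CTCF motif was in 6.32% of the stable regions, 4.69% of the other and 5.85% of all eligible regions. CTCF is an insulator protein at chromatin loop anchors. The stable regions that held its motif lay a median of 21,248 bases from a coding start, against 32,520 for all stable regions. The motif was in 1.41% of the stable regions below 40% GC and in 14.5% of those above 55%. The part of GC content in the shorter distance was not tested. The motif of GATA factors, AGATAAG, was in 2.81%, 4.40% and 3.29%. The HNF6 motif was in 3.85%, 5.04% and 3.81%. Both shares were lower in stable than in other regions in each of 5 classes of GC content. Below 40% GC they were 3.76% against 5.16% (GATA) and 7.91% against 9.44% (HNF6), and above 55% 0.999% against 2.38% and 1.27% against 1.42%. The FOXA share was higher in stable regions in each class below 50% GC. It was lower from 50% to 55% (5.15% against 5.33%) and above 55% (2.86% against 3.32%). For CAGATG it was higher in each class below 55% GC and lower above (20.8% against 22.7%).

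Across all CpG-sparse distal regions, without regard to GC content, motif shares varied with the highest of the 4 levels. From the lowest class (0 to 5%) to the highest (50 to 100%), the HNF6 motif went from 3.16% to 6.70% and the GATA motif from 2.76% to 5.96%. The CTCF motif went from 6.17% to 4.53% and the FOXA motif from 7.86% to 6.20%. Stable regions with a given one of the 13 motifs had like levels, their median of the mean level ranging from 6.78% (FOXA) to 7.50% (REST).

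**Figure D5:**
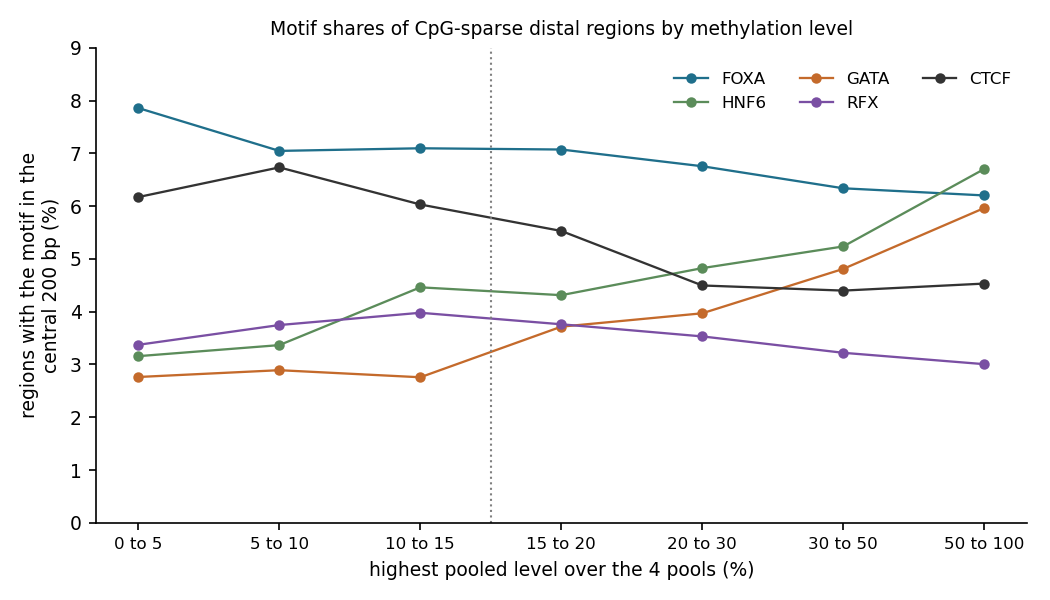
Percent of CpG-sparse distal regions with a motif in the central 200 bp by class of the highest pooled level. Classes left of the dotted line are the stable regions. The GATA and HNF6 lines rise to the right, to 5.96% and 6.70%, and the CTCF and FOXA lines fall.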

How the data were processed

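The members and gene lists were chosen with earlier results of these data known. T-WGBS reads were trimmed by the authors (Trim Galore 0.6.6, cutadapt 1.16 and SAMtools 1.5 per the submitters' processing notes), mapped to mm39 with abismal and analysed with MethPipe. The deposited counts are methylated and unmethylated reads per CpG, strands merged, pooled per subtype and stage. The pooled tables are named B1 and B2 and were taken as M-N+ and M+N+, because the gated lists then match the study's text. HMRs of pools and libraries were deposited as positions with a number of CpGs. The authors' scores and lists of differential regions hold their own comparison and were not used.

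HMRs of the 4 pools were merged (overlap of at least 1 base), and reads were summed per region with NumPy 2.4.6 and pandas 2.3.3. CpGs are those listed at either stage. Starts and genes are from GENCODE M39. The domain rule was 5 kb upstream and 1 kb downstream of the canonical start, extended up to 1 Mb. Motifs were searched in the mm39 sequence. Named were the 12 genes with the most regions, the listed genes with a region, the 6 regions with the lowest highest level among those with at least 200 reads in every pool, 3 on each side of the limit, and the printed sequences. Some listed genes, 1 motif and 1 sequence are counted but not reported here. The steps were checked on simulated data. No test was made, since the levels selected the regions. Alternatives were other limits, gaps, read minimums, starts, CpG sources, overlaps, windows and assignments, and leaving out each library. Sex chromosomes were left out.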

Additional observations from a re-analysis of the deposited data

How the results depend on the processing

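The number of stable regions stayed within 1.5 times of 19,074 under 9 of 10 alternatives, from 14,986 (starts of every biotype) to 27,954 (limit of 20%). With a limit of 10% it was 10,153. Presence in every library went from 50.6% to 45.1% when an HMR had to cover 50% of the region, and to between 50.6% and 52.8% when 1 library was left out. It was 86.1% over regions with at least 8 CpGs, an alternative chosen after seeing the data. With genes of every biotype 69.7% of the regions were inside a gene. The share with at least 1 motif was 43.7% in a window of 100 bp and 87.6% in one of 400 bp. The 12 genes held 120 regions by gene body. The stable minus other difference for CAGCTG turned to -0.173 points, and that for NKX2 to 0.0373 points, in the window of 400 bp, and the other 12 motif differences kept their sign in both windows. The median of the mean level was 7.13%, and 7.21% as a mean over CpGs. No paired analysis was possible because the levels were pooled and no test was made. Matched by replicate number, the share of stable regions found in a P60 library was lower in M+N+ than in M-N+ cells in replicates 1 and 2 and higher in replicates 3 and 4. With pooled reads, the spread of levels between animals is unknown, and regions with few CpGs cannot be judged in single libraries.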

Other observations

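Stable regions lay in groups at some loci, which were chosen after their values were seen. Joining stable regions less than 10 kb apart left 14,098 single regions and 2,195 groups of 2 or more, which held 26.1% of the regions. No share of the other regions is set beside it, so it is not read as a trait of the stable regions. The largest group held 8 regions over 33.8 kb at Uaca, with a mean level of 5.54%. Groups of 7 were found at Gse1 over 25.1 kb and at Dagla, a diacylglycerol lipase gene, over 28.4 kb, with mean levels of 7.84% and 4.18%. Of the genes with at least 10 stable regions, Sec14l1 had the most per 100 kb of territory, 9.40, and Pax2, a paired box factor gene of kidney and inner ear, had 6.82. By chromosome the number per Mb ranged from 6.49 on chromosome 14 to 10.1 on chromosome 11.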
